A study of Homo sapiens with 6 samples.

Results

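Histone genes were compared between HEK293, an established line of human embryonic kidney origin, edited to carry the rs16851030 variant of ADORA1, a gene for an adenosine receptor, and its wild type. Members were the rows of the deposited table whose symbol begins with an H1, H2A, H2B, H3, H4 or macroH2A histone prefix or is H2AX or H2AJ, without symbols that mark pseudogenes. The table of 61806 genes held 111 such symbols, of which 24 were left out as pseudogenes and 87 were taken. Of these, 83 were histone genes: 10 linker genes (H1), 62 replication-dependent core genes (16 H2A, 18 H2B, 13 H3 and 15 H4) and 11 variant genes (6 of H2A and 5 of H3). The other 4 were non-coding transcripts named after a histone neighbour. The mutant group (rs16851030-mutant, introduced with CRISPR homology-directed repair) and the wild-type group had 3 libraries each, with no further treatment named in the labels. The labels call them biological replicates but do not say how many edited clones stand behind the mutant group, so the p-values measure the spread between these libraries.

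Histones package DNA. Core histones H2A, H2B, H3 and H4 form the nucleosome, around which DNA is wrapped, and linker histone H1 binds where DNA enters and leaves it and compacts the fibre. Replication-dependent histone genes lie in clusters, are transcribed mainly in S phase, and make mRNAs that lack introns and normally end in a conserved stem-loop in place of a poly(A) tail. The stem-loop is bound by SLBP, the stem-loop binding protein, and directs 3' end cutting and decay. Variant histones are made outside S phase too, from polyadenylated mRNAs, and replace core histones at particular places, as H2A.Z and H3.3 do at active genes and macroH2A does in silent chromatin. These libraries were made from RNA captured on oligo(dT) beads, so the counts of replication-dependent genes come from whatever part of their RNA such beads retain, and a change in total histone mRNA cannot be told apart from a change in its polyadenylated part. In bulk RNA a change in the number of cells in a cell-cycle phase and a change in RNA per cell cannot be told apart either.

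The stem-loop was looked for in the coding transcripts of GENCODE release 29 (GRCh38), where 78 members matched by identifier and 5 by an older symbol, as a hairpin of 16 bases with a perfect stem of 6 that opens with GG and a loop of 4 that opens with TTT, on the transcript strand. It was found in 29 members, 27 core genes, H2AX and H3-4, and in 57 of 19684 coding genes (0.290%) in all. For 34 members every model is the coding sequence alone, so the hairpin could not have been seen there. The 5 hairpins below come from members with a mean of at least 1 FPKM, with the stem in capitals and the loop in lower case.
H2BC21, chr1:149886188-149886203, minus strand: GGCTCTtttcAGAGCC
H3C10, chr6:27810516-27810531, plus strand: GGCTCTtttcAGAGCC
H4C5, chr6:26205001-26205016, plus strand: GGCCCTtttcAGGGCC
H2BC5, chr6:26158587-26158602, plus strand: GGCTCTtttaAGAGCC
H2AX, chr11:119094898-119094913, minus strand: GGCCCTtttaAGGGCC

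The form of H2BC21 and H3C10 was the most common, in 15 members, and that of H4C5 was found in 5, that of H2BC5 in 5 and that of H2AX in H2AX alone. A further form, not shown, has the stem of H4C5 with a loop of only T and was found in 3 H4 genes of low count. Of the 26 hairpins that could be placed on the genome, 16 lay within 20 bases of the end of the deposited gene. H4C5 is such a gene, with 5 bases beyond the hairpin. The deposited span of H2BC21 runs 1729 bases further, that of H2AX 1024, that of H3C10 769 and that of H2BC5 12747, so their counts can take in reads beyond the hairpin. Where the reads lie was not tested.

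Promoters were read from RefSeq (GRCh38.p14), where 74 of the 83 histone genes matched, and the 250 bases before the start were searched on both strands for CCAAT, for TATAAA, for ATTTGCAT, the octamer bound by POU2F1 and known from H2B promoters, and for AAACACA, the H1 box. The octamer stood in 14 of 17 core H2B promoters (82.4%) and 11 of 15 core H2A promoters (73.3%), against 1.63% of all 35116 promoters. Back-to-back H2A and H2B genes can hold the same octamer in both windows, as H2BC21 and H2AC20 do. Such an octamer is counted for both families. The H1 box stood in 7 of 9 linker promoters and 4.82% of all. CCAAT was in 46 of 55 core promoters and 32.0% of all, and TATAAA in 38 of 55 and 10.7%. The sequences shown belong to the H2B genes with the clearest rise and fall and to the clustered linker genes that rose. Capitals mark matches to any of these motifs on either strand, and neighbouring matches can run together, as in H2BC12, where TATAAA and its reverse complement overlap.
H2BC21, chr1:149886683-149886932, minus strand: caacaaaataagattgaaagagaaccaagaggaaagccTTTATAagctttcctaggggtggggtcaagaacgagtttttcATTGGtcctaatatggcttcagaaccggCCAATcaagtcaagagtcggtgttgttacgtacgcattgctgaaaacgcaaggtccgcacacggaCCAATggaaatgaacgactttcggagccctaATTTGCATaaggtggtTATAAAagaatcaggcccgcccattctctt
H2BC12, chr6:27146859-27147108, minus strand: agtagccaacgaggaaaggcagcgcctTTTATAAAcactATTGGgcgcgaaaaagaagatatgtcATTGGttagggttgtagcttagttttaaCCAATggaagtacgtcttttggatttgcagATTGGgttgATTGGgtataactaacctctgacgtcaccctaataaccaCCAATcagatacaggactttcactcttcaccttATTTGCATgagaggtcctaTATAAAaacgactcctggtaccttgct
H1-2, chr6:26056471-26056720, minus strand: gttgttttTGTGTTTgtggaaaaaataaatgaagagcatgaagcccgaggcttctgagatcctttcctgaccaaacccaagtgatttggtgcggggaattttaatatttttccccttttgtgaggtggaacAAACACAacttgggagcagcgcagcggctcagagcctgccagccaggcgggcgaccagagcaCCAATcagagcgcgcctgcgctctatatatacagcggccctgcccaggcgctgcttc
H1-4, chr6:26156079-26156328, plus strand: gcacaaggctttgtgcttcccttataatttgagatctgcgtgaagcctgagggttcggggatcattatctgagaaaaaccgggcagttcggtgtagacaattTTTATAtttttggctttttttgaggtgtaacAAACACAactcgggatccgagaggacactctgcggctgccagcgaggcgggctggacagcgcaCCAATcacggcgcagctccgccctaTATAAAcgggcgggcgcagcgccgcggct

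H2BC21 and H2BC12, which moved in opposite directions, both held the octamer, a TATAAA and CCAAT. H1-2 and H1-4, which rose, both held the H1 box and CCAAT. H1-10, which also rose, had TATAAA and neither CCAAT nor the H1 box in this window.

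Libraries held 16013460 to 20349609 assigned counts. ADORA1, at 34 to 48 counts in the mutant and 29 to 44 in the wild type, is an edited and not a deleted gene, and its level checks no label. Of 10 markers known from HEK293 cells, 8 reached the minimum of a mean of 1 FPKM (fragments scaled to exon length and library total) over the 6 libraries. Of these 8, 5 fell and 2 rose. The 2 below the minimum, KRT8 and PAX2, were higher in the mutant without overlap, as were 12.9% of all genes below it with a count. In a fit without the minimum 4 of the 10 were called higher and 5 lower, against 14% and 13.3% of 32852 genes. In the gene-by-gene test below, 87.5% of the tested markers were called, against 58.1% of all tested genes. The summed level of the 10 markers was 144.8 to 148.8 FPKM in the mutant and 198 to 228 in the wild type. Without VIM, the gene of the filament protein vimentin, chosen after its values were seen, the sums overlapped at 58.7 to 60.6 and 54.7 to 62.8 FPKM. The part of the marker differences in the histone results was not tested. Of 14 markers of blood, endothelial, fibroblast, hepatic, squamous and muscle cells, 0 reached it and 2, CD3E and HBB, were at 0 counts in every library, with summed levels of 0.770 to 0.910 FPKM in the mutant and 1.02 to 1.31 in the wild type.

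Summed linker histone RNA was higher in the mutant, summed core histone RNA was higher with H2BC21 and overlapped without it, and summed variant RNA overlapped between the groups. The sums are described without a test, and the tests of single genes follow. Summed over the 10 linker genes, the libraries held 480.3, 467.6 and 465.3 CPM (counts scaled to library total) in the mutant and 301.6, 241.1 and 261.7 in the wild type. These groups did not overlap, and H1-10 alone held most of the linker counts in every library. The 62 core genes together held 80.4, 78.3 and 82.4 CPM in the mutant and 56.5, 59.1 and 66.1 in the wild type. Without H2BC21, singled out after its values were seen, the core sums were 53.5, 50.1 and 54.1 against 51.4, 56.0 and 61.5, and the groups overlapped. By family, H2B sums were 60.1 to 62.4 CPM in the mutant and 41.0 to 46.4 in the wild type. Without H2BC21 the H2B sums were 35.0, 31.9 and 34.0 CPM in the mutant and 35.9, 39.0 and 41.7 in the wild type. This sum was lower in the mutant without overlap, but most of its counts were of H2BC12. In the mutant H2BC12 had 457, 321 and 324 of 712, 537 and 545 counts. In the wild type it had 435, 432 and 542 of 644, 658 and 741. The sum therefore does not show a fall shared by the remaining H2B genes. For the other families the ranges of H2A (6.24 to 7.32 against 6.41 to 7.9999), H3 (8.08 to 9.05 against 6.76 to 8.56) and H4 (2.70 to 4.43 against 2.29 to 3.15) overlapped. The 11 variant genes held most of the histone counts. Their sums were 2044 to 2130 CPM in the mutant and 2062 to 2146 in the wild type, again overlapping. Since the RNA was captured on oligo(dT) beads, the shares of the classes are not their shares of total histone RNA.

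**Figure D1:**
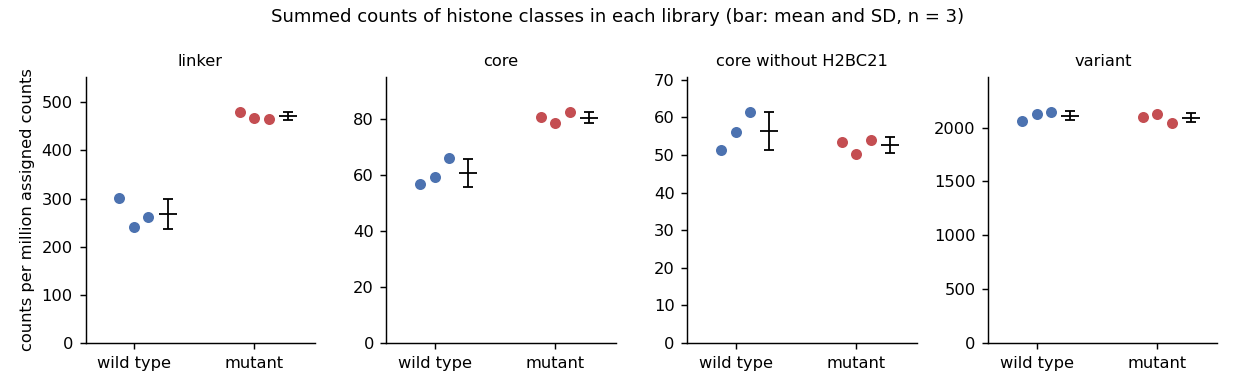
Summed counts of the linker, core and variant histone genes as CPM (y axis, from 0) in each wild-type and mutant library, with core genes also shown without H2BC21; bars give the mean and SD of 3 libraries. Linker sums are 465.3 to 480.3 in the mutant and 241.1 to 301.6 in the wild type, and the core sums overlap once H2BC21 is left out.

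Counts were tested gene by gene with edgeR's quasi-likelihood test over all 12550 genes with a mean of at least 1 FPKM, with calls made where the adjusted p was under 0.05. Of these genes 58.1% were called, 29.3% as higher and 28.7% as lower in the mutant, so a call alone is common here. Of the 83 histone genes 26 passed the minimum, and 15 of them were called, 8 higher and 7 lower (57.7%), close to the share over all genes. By class, 4 of 4 tested linker genes were higher. Of 14 tested core genes, 3 were higher, 3 lower and 8 not called, and of 8 tested variant genes 1 was higher, 4 lower and 3 not called. All mutant values lay above all wild-type values in 8 of the 26 genes and below them in 6, against 34.9% and 28.2% of all tested genes. A difference of at least 2-fold was seen in 4 histone genes, all higher, against 3.55% of all tested genes higher and 0.789% lower by that much. The median log2 fold change was -0.0035 for core genes, -0.053 for variants and -0.0014 for all tested genes. H1-4, H3C2 and H4C5, which are 3 of the 4 genes with a 2-fold difference, passed the minimum only through the mutant libraries. H3C6 and H2AC17 passed it only through the wild-type libraries. Counts over the tested members therefore favour genes that differ, and the 4 genes cannot be read as an excess over 3.55%.

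**Figure D2:**
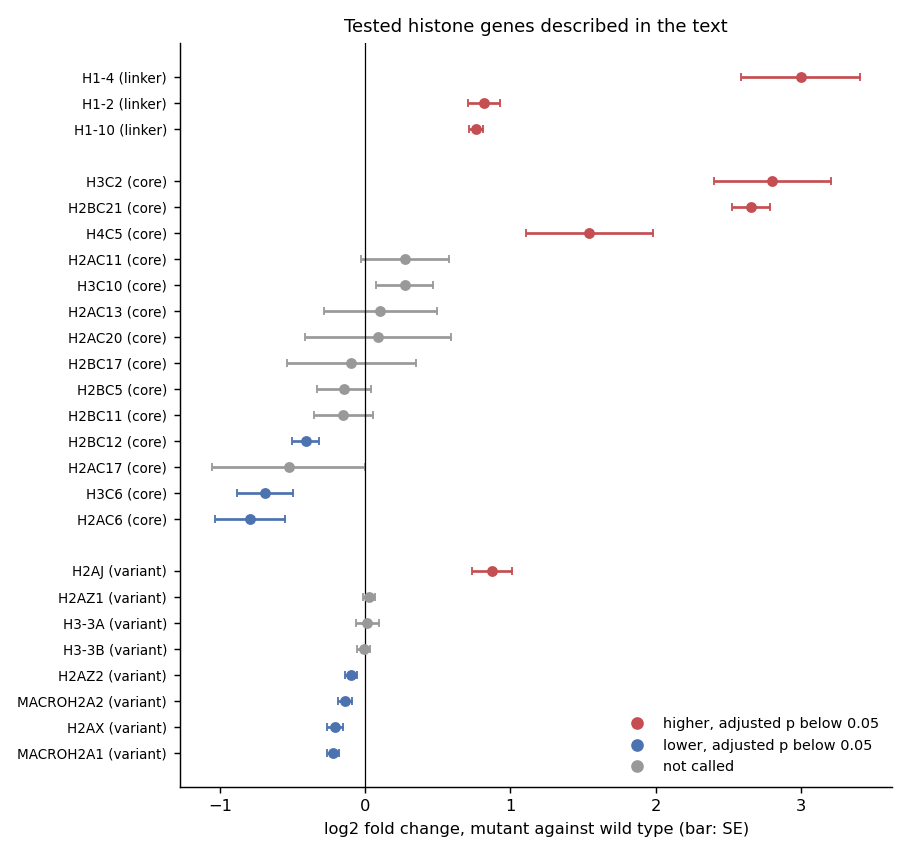
Log2 fold change of the mutant against the wild type (x axis, with SE as bars) for the tested histone genes described in the text, grouped as linker, core and variant and coloured by call. The linker genes shown lie right of 0 (0.76 to 3.00), core genes run from -0.79 to 2.80, and variants other than H2AJ lie between -0.22 and 0.03.

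H1-10, the replication-independent linker histone H1x (ENSG00000184897, GRCh38 chr3:129314771-129316286, minus strand), had the highest FPKM of the linker genes in these libraries. Mutant libraries had 210.2, 201.6 and 198.2 FPKM, against 124.2, 110.3 and 116.7 in wild-type ones. All mutant values lay above all wild-type values. Its log2 fold change was 0.76 (SE 0.045, adjusted p = 2.85e-10), a rise of 1.70-fold. H1-10 overlaps the antisense transcript H1-10-AS1, which the strandedness of counting, not given in the sources used here, would have to separate. H1-10-AS1 had 45, 61 and 46 counts in the mutant and 31, 36 and 23 in the wild type, far fewer than H1-10 in every library. In the fit without an expression minimum it differed by 0.68 in log2 terms (SE 0.24, adjusted p = 0.0225). Reads of the pair where the genes overlap cannot be told apart here. Of the other non-coding neighbours, H2AZ1-DT, H2AZ2-DT and H3-3A-DT had 2 to 21 counts per library and were not called in that fit.

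H1-2 and H1-4 are linker genes of the chromosome 6 cluster. H1-2 (chr6:26055740-26056470, minus strand) had 21.1, 22.6 and 24.4 FPKM in the mutant and 11.1, 13.2 and 13.3 in the wild type, without overlap. It rose by 1.76-fold (log2 fold change 0.82, SE 0.11, adjusted p = 6.60e-06). H1-4 (chr6:26156329-26157115, plus strand) was rare in the wild type, with 8, 4 and 3 counts, and had 39, 32 and 55 counts in the mutant. In FPKM this was 2.44, 2.42 and 4.36 against 0.570, 0.300 and 0.210, and the log2 fold change was 3.00 (SE 0.41, adjusted p = 6.49e-06). Its size depends on the low wild-type counts, with log2 fold changes of 1.56 to 3.48 over the alternatives, the lowest with limma on log2(FPKM + 1). The other clustered linker genes, H1-1, H1-3, H1-5 and the testis gene H1-6, had at most 10 counts in any library, as did H1-7, and H1-8, the oocyte linker histone, had 0 in all.

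Within the linker pool, H1-2 gave 3.21 to 3.82% of linker counts in the mutant and 2.70 to 4.01% in the wild type, and these ranges overlap. H1-4 gave 0.399 to 0.738% in the mutant and 0.0646 to 0.148% in the wild type, without overlap.

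**Figure D3:**
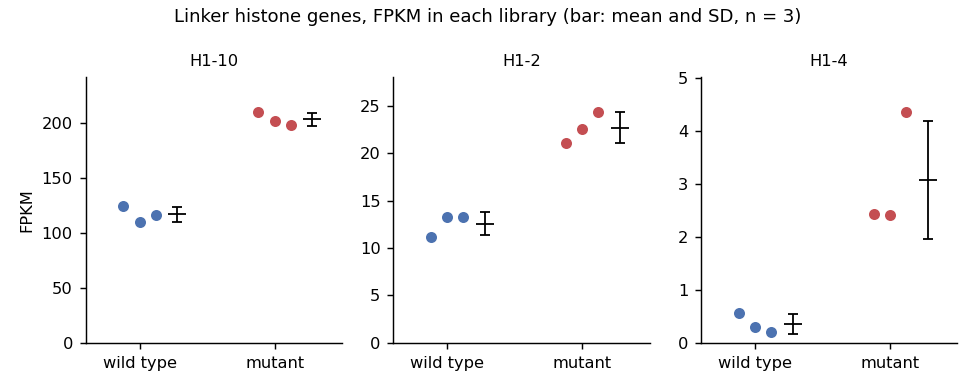
Level of H1-10, H1-2 and H1-4 in FPKM (y axis, from 0) in each wild-type and mutant library, with bars for the mean and SD of 3 libraries. In every panel all mutant points lie above all wild-type points, as for H1-10 with 198.2 to 210.2 against 110.3 to 124.2 FPKM.

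H2BC21, an H2B gene of the chromosome 1 cluster (ENSG00000184678, chr1:149884459-149886682, minus strand), showed the clearest change among core genes. Its counts were 548, 474 and 454 in the mutant and 92, 52 and 82 in the wild type. The corresponding levels were 12.1, 12.7 and 12.8 FPKM and 2.31, 1.39 and 2.08 FPKM, without overlap, and the rise was 6.32-fold (log2 fold change 2.66, SE 0.13, adjusted p = 2.55e-11). It supplied 33.5 to 36.0% of core counts in the mutant and 5.22 to 9.07% in the wild type. None of the 150-base windows of its transcript model occurs in the model of another histone gene or histone pseudogene (0%). H2BC12, an H2B gene of the chromosome 6 cluster (chr6:27146361-27146855, minus strand), had the highest FPKM of the core genes and fell. Its level was 45.4, 38.5 and 40.9 FPKM in the mutant and 49.0, 51.7 and 61.7 in the wild type, with the log2 fold change at -0.41 (SE 0.095, adjusted p = 0.00126). Its share of core counts was 24.4 to 27.9% in the mutant and 42.9 to 46.2% in the wild type, in a total that holds the rise of H2BC21. With H2BC21 left out of the total, the shares were 37.4 to 42.0% and 45.7 to 49.7%. By counts H2BC21 was ahead of it in every mutant library.

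The remaining tested H2B genes were not called and their groups overlapped. H2BC5 had 3.31, 4.35 and 4.06 FPKM in the mutant and 4.27, 4.54 and 3.80 in the wild type (log2 fold change -0.15, SE 0.19). H2BC11 had 2.72, 2.56 and 3.16 against 2.72, 3.74 and 2.69 FPKM (-0.15, SE 0.20). H2BC17 had 0.740, 1.40 and 1.47 against 0.840, 1.52 and 1.33 FPKM (-0.094, SE 0.44). With 7 to 12 counts per library H2BC17 could hide a sizeable difference.

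Among H2A genes H2AC6 was called, and it fell. It had 42, 32 and 19 counts in the mutant and 45, 56 and 54 in the wild type, or 1.24, 1.14 and 0.710 against 1.5, 1.99 and 1.82 FPKM. The groups did not overlap and the log2 fold change was -0.79 (SE 0.24, adjusted p = 0.00858). H2AC11, the most abundant core H2A transcript by FPKM, had 3.99, 2.41 and 2.15 FPKM in the mutant and 2.49, 2.16 and 2.40 in the wild type (log2 fold change 0.27, SE 0.30). H2AC13 had 1.19, 1.20 and 2.27 against 1.24, 1.32 and 1.59 FPKM (0.11, SE 0.39). H2AC20 had 1.19, 1.92 and 0.630 against 1.02, 0.480 and 1.94 FPKM (0.087, SE 0.50), and H2AC17 had 0.810, 0.240 and 1.92 against 1.03, 1.83 and 1.27 FPKM (-0.53, SE 0.53). None of these 4 passed the test. In H2AC13 and H2AC17, 51.7% and 80.7% of 150-base windows also occur in another histone gene, so their counts are uncertain.

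H3 genes went in both directions. H3C2 (ENSG00000286522, chr6:26031589-26032099, minus strand) had 33, 28 and 35 counts in the mutant and 7, 2 and 4 in the wild type. Its level was 3.17, 3.26 and 4.28 FPKM against 0.760, 0.230 and 0.440, a rise of 6.99-fold (log2 fold change 2.80, SE 0.40, adjusted p = 1.11e-05). Over the alternatives its log2 fold change ran from 1.64 with limma on log2(FPKM + 1) to 3.30. H3C6 (chr6:26224199-26227473, plus strand) fell, with 0.860, 0.910 and 1.05 FPKM in the mutant and 1.35, 1.33 and 1.75 in the wild type (log2 fold change -0.69, SE 0.19, adjusted p = 0.00550). Neither gene's groups overlapped. H3C10, the core H3 gene with the highest FPKM averaged over all 6 libraries, had 3.15, 2.76 and 2.40 FPKM against 1.92, 2.23 and 2.61, with overlap and no call (0.27, SE 0.20). H4C5 (chr6:26204610-26205021, plus strand) was the single H4 gene above the minimum. It rose from 4, 4 and 11 counts in the wild type to 22, 14 and 22 in the mutant, or from 0.540, 0.580 and 1.5 to 2.62, 2.02 and 3.33 FPKM (log2 fold change 1.54, SE 0.44, adjusted p = 0.00578). Wild-type replicate 3 held most of the wild-type counts, and without it the log2 fold change was 2.18, while limma on log2(FPKM + 1) gave 0.99.

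**Figure D4:**
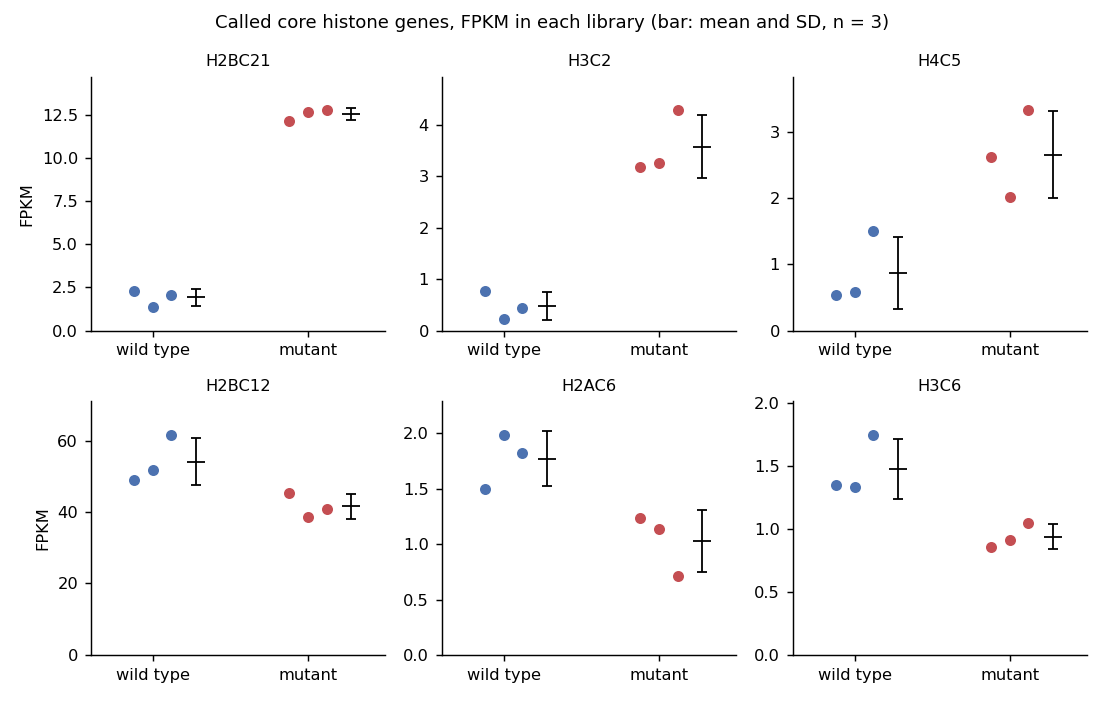
Level of the 6 called core histone genes in FPKM (y axis, from 0, its own scale in each panel) in each wild-type and mutant library, with bars for the mean and SD of 3 libraries. H2BC21, H3C2 and H4C5 are higher in the mutant and H2BC12, H2AC6 and H3C6 lower, with no overlap between groups in any panel.

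Most replication-dependent genes were barely detected. Of the 62 core genes 48 stayed below the minimum, 43 of them averaged fewer than 10 counts per library, and 14 had 0 counts in every library. The most counts in any library among these 48 were the 59 of H2BC15 in mutant replicate 1, and its groups overlapped (59, 31 and 38 against 39, 35 and 42). Among the 47 core genes with a deposited exonic length of at most 700 bases the median of the mean counts was 1.17, and among the 15 longer ones it was 22.5. H3C14, H3C15, H2BC12L, H4C14, H4C12 and H2AC18 share all of their 150-base windows with another histone gene, and their values are uncertain. In a fit without the minimum, in which 14% of 32852 genes were called higher and 13.3% lower, 3 further core genes were called, all by more than 2-fold, as were 4.34% of genes upward and 1.36% downward. H2BC18, an H2B gene of the chromosome 1 cluster, had 34, 33 and 36 counts in the mutant and 14, 12 and 6 in the wild type (log2 fold change 1.60, SE 0.34, adjusted p = 1.61e-05). Its span overlaps FCGR1A on the other strand and a gene without a symbol on its own strand, so its counts are uncertain. H3C13 had 2, 2 and 10 against 0, 0 and 1 counts (adjusted p = 0.0286) and rests on few reads. H4C8 fell, with 6, 5 and 10 counts in the mutant and 16, 16 and 20 in the wild type (log2 fold change -1.37, SE 0.44, adjusted p = 0.00864). Of the 34 core genes below the minimum with a count in some library, 8 had all mutant values above all wild-type values (23.5%) and 2 all below (5.88%), against 12.9% and 5.18% of all genes below the minimum with a count.

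Many H2A and H2B genes lie back to back and share a promoter region, and 12 pairs of core genes had starts less than 1000 bases apart on opposite strands. H2BC21 and H2AC20 are 236 bases apart. Over the 3 libraries of a group, H2BC21 had 1476 counts in the mutant and 226 in the wild type, and H2AC20 had 33 and 30. H2BC12 and H2AC12, 251 bases apart, had 1102 and 1409 counts and 10 and 8 counts in that order of groups. H2BC8 and H2AC8, 233 bases apart, had 33 and 11 and 12 and 9. In these pairs, a selection from the 12, the H2B gene had more counts in each group and held most of the difference in counts. Other pairs differed. H2BC11 and H2AC11 had 156 and 167 counts and 77 and 61 counts. H2BC17 and H2AC17 had 29 and 30 counts and 25 and 35 counts. The pair H2BC4 and H2AC6, 219 bases apart, had 30 and 37 counts and 93 and 155 counts. Differences between partners were not tested.

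The chromosome 6 cluster (chr6:25726063-27893891) held 55 linker and core members. Of 20 other coding genes wholly inside it 9 were tested, with 4 higher, 2 lower and 3 not called and a median log2 fold change of -0.034. The share called was 66.7%, against 58.1% of all tested genes. HMGN4, a nucleosome-binding protein gene, rose by 0.62 on the log2 scale, to 56.4 ± 1.75 from 35.7 ± 3.11 FPKM (SD, n = 3 each, SE 0.057, adjusted p = 5.94e-08). BTN3A2, a butyrophilin gene, rose by 0.58 and ABT1, a transcription and ribosome assembly factor, fell by 0.40 on the log2 scale. These neighbours were named after their values were seen. The chromosome 1 cluster (chr1:149782689-149887965) held 11 core members and 0 other coding genes lying wholly inside it. FCGR1A and BOLA1 overlap members of this cluster, H2BC18 and H2AC21, on the opposite strand.

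An H2A.Z gene, H2AZ1, had the highest FPKM of the histone genes in these poly(A) libraries. H2AZ1 (chr4:99948086-99950355, minus strand) had 360.9, 384.6 and 371.6 FPKM in the mutant and 343.9, 358.9 and 369.4 in the wild type. The groups overlapped, and the log2 fold change was 0.026 (SE 0.041, adjusted p = 0.605). H2AZ2, the gene of the second H2A.Z isoform, had 29.4, 28.3 and 28.1 FPKM in the mutant and 29.7, 30.4 and 29.6 in the wild type. Its fall of 0.097 on the log2 scale (SE 0.040, adjusted p = 0.0485) lay at the threshold, and 12 of 17 alternative settings did not call it. The ratio of H2AZ1 to H2AZ2 was 13.0 ± 0.682 in mutant and 11.95 ± 0.485 in wild-type libraries (SD, n = 3 each), with overlap.

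H2AX, the variant phosphorylated at DNA breaks, had 68.4, 59.3 and 59.1 FPKM in the mutant and 71.2, 71.0 and 68.6 in the wild type (chr11:119093874-119095465, minus strand). Mutant replicate 1 lay just under the wild-type values, and the log2 fold change was -0.20 (SE 0.055, adjusted p = 0.00398). The 25 tested genes nearest to H2AX had a median log2 fold change of -0.13. The part of the neighbourhood in this result was not tested. H2AJ, a variant known to accumulate in senescent and luminal epithelial cells (chr12:14774405-14778002, plus strand), was the variant that rose. It went from 1.57, 1.51 and 1.71 FPKM in the wild type to 2.82, 3.41 and 2.79 in the mutant, a rise of 1.83-fold (log2 fold change 0.87, SE 0.14, adjusted p = 2.73e-05). Its neighbour H4-16, a solitary H4 gene, had 10 to 18 counts in the mutant and 5 to 16 in the wild type.

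MACROH2A1 and MACROH2A2 encode the histones with a large macro domain that mark silent chromatin. MACROH2A1 (chr5:135334381-135399914, minus strand) had 15.6, 15.9 and 15.3 FPKM in the mutant and 18.4, 17.0 and 17.8 in the wild type, without overlap (log2 fold change -0.22, SE 0.040, adjusted p = 1.48e-04). MACROH2A2 (chr10:70052544-70112282, plus strand) had 8.02, 8.44 and 7.57 FPKM against 8.35, 8.64 and 8.83, with overlap (log2 fold change -0.14, SE 0.049, adjusted p = 0.0235), and 10 of 17 alternative settings did not call it. Tested genes of chromosome 10 had a median log2 fold change of -0.36, and the 25 nearest to MACROH2A2 one of -0.44. The part of the chromosome in this result was not tested. Deposited lengths of 17013 and 14988 bases, which pool all isoforms, make the FPKM of both low for their counts.

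H3.3 is encoded by H3-3A and H3-3B, which make the same protein. H3-3B (chr17:75776434-75785893, minus strand) had the higher FPKM, with 89.0, 86.6 and 82.2 in the mutant and 80.4, 87.4 and 85.9 in the wild type. H3-3A (chr1:226061851-226072019, plus strand) had 6.51, 6.06 and 5.73 against 5.97, 5.89 and 5.86 FPKM. The log2 fold change was -0.0099 for H3-3B (SE 0.043, adjusted p = 0.860). It was 0.016 for H3-3A (SE 0.080, adjusted p = 0.881), and the groups overlapped for each gene. The FPKM ratio of H3-3A to H3-3B was 0.0709 ± 0.00194 in mutant and 0.0700 ± 0.00375 in wild-type libraries (SD, n = 3 each). In H3-3A 7.82% of windows also occur in another histone gene or pseudogene. H3-5, H3-4 and H3-7 stayed below the minimum, with at most 25 counts in a library.

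**Figure D5:**
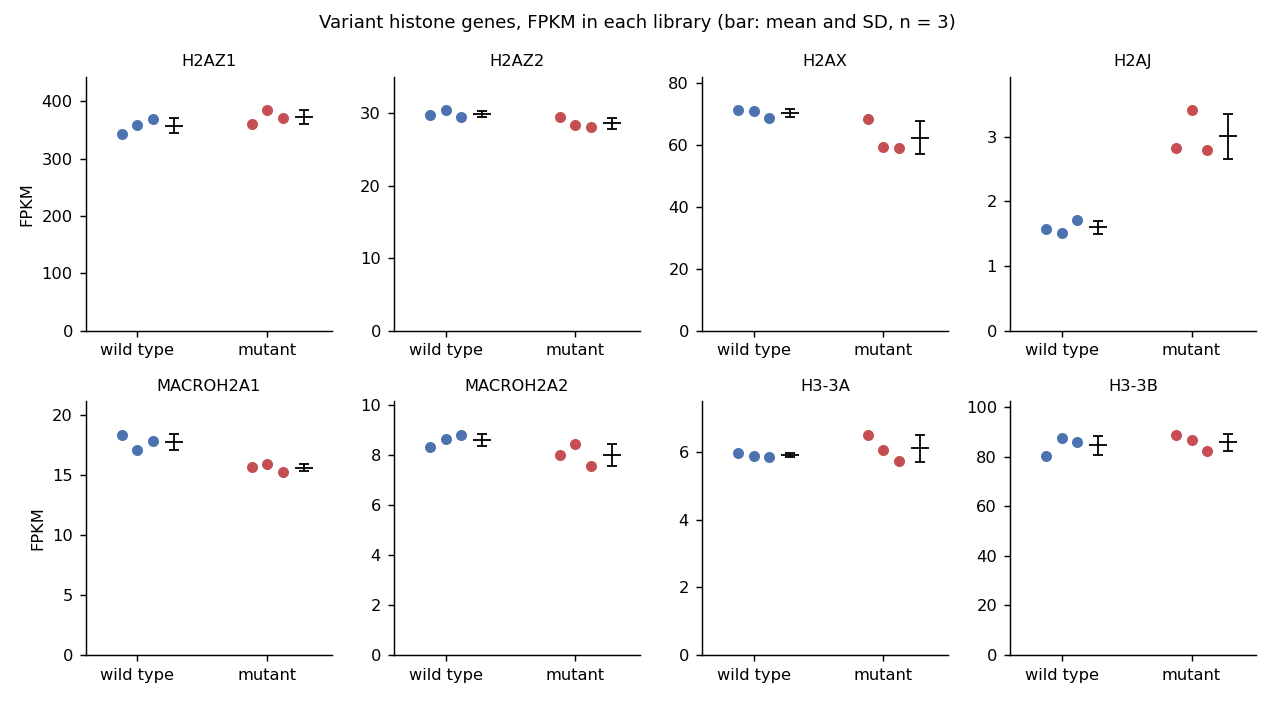
Level of the 8 tested variant histone genes in FPKM (y axis, from 0, its own scale in each panel) in each wild-type and mutant library, with bars for the mean and SD of 3 libraries. H2AJ is higher in the mutant (2.79 to 3.41 against 1.51 to 1.71 FPKM), MACROH2A1, H2AX and H2AZ2 are lower without overlap, and the groups overlap in the other panels.

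Genes that control histone supply changed in both directions, as tested genes did in general, with 63.1% called against 58.1% of all tested genes. Of 65 tested genes for histone gene transcription, 3' end formation and chaperones, 14 rose, 27 fell and 24 did not pass, with a median log2 fold change of -0.061, where 29.3% of all tested genes rose and 28.7% fell. Among 15 transcription factors and cofactors, 3 rose, 4 fell and 8 did not pass (46.7% called against 58.1% of all tested genes, median -0.016). NPAT, the factor that cyclin E and CDK2 activate at histone clusters, had 7.47, 7.27 and 7.51 FPKM in the mutant and 6.98, 7.79 and 7.22 in the wild type, and was not called. NFYA, a subunit of the factor that binds CCAAT, fell by 0.51 on the log2 scale, to 10.9 ± 0.267 in mutant from 15.1 ± 0.932 FPKM in wild-type libraries (SD, n = 3 each). CASP8AP2, which encodes the histone processing factor FLASH, rose by 0.33, CDK2 by 0.21 and POU2F1, the octamer-binding factor, by 0.24, and COIL, the Cajal body protein coilin, fell by 0.33 on the log2 scale. POU2F1 stood at 6.72, 6.21 and 6.82 FPKM in the mutant and 5.33, 5.82 and 5.23 in the wild type, without overlap.

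Of 22 genes of 3' end processing and decay, many of which also serve ordinary polyadenylation, 5 rose, 11 fell and 6 did not pass (median -0.14). Thus 72.7% of them were called, against 58.1% of all tested genes. SRRT, which encodes the cap-binding partner ARS2, had 44.6, 41.6 and 44.3 FPKM in the mutant and 66.9, 65.4 and 68.6 in the wild type, and fell by 0.66 on the log2 scale (SE 0.041, adjusted p = 5.42e-10). CSTF2 and CSTF2T, RNA-binding subunits of the cleavage stimulation factor, fell by 0.45 and 0.65, and SNRPB, an Sm protein, fell by 0.64. NUDT21, the cleavage factor that steers the choice of poly(A) site, rose by 0.36. CSTF2T lies on chromosome 10, SNRPB on 20 and NUDT21 on 16. SLBP, named here for its role after its values were seen, had 74.4, 78.0 and 76.0 FPKM in the mutant and 66.6, 63.2 and 70.8 in the wild type (log2 fold change 0.15, SE 0.047, adjusted p = 0.00957).

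Of 28 chaperone and deposition genes, 6 rose, 12 fell and 10 did not pass (64.3% called against 58.1% of all tested genes, median -0.063). HIRA, a chaperone of H3.3, fell by 0.41 on the log2 scale, to 8.59 ± 0.291 FPKM in mutant from 11.2 ± 0.391 in wild-type cells (SD, n = 3). DNAJC9, an H3-H4 co-chaperone, fell by 0.51, and IPO4, an importin for H3 and H4, by 0.78. NAP1L1, an H2A-H2B chaperone, rose by 0.29 and ASF1B, an H3-H4 chaperone of proliferating cells, by 0.35. HIRA lies on chromosome 22 and DNAJC9 on chromosome 10. Of 15 S-phase genes, set beside the histone genes as a measure of the cell cycle, 3 rose, 7 fell and 5 did not pass, with a median of -0.096. The share called was 66.7%, against 58.1% of all tested genes. PCNA, the sliding clamp, fell by 0.60, MCM5 by 0.46 and CCNA2 by 0.28, whereas CDT1 rose by 0.45 and GINS2 by 0.36. PCNA lies on chromosome 20, MCM5 on 22, CCNA2 on 4, and CDT1 and GINS2 both on 16. The part of the chromosomes in these differences was not tested. The part of the cell cycle in the histone differences was not tested.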

How the data were processed

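Poly(A) RNA of 3 mutant and 3 wild-type HEK293 cultures was sequenced as paired ends, and groups come from the titles in the labels. The deposited table holds raw counts per gene and FPKM for each library, per the file headers. The submitters' processing notes list cutadapt, HISAT2 (2.0.1), HTSeq and the GRCh38 build, and neither annotation release nor strandedness is stated there. Dividing counts by exonic length and library total returned the deposited FPKM to within 0.011 (100% of values).

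The 12550 genes averaging 1 FPKM or more were tested on counts over the whole table with edgeR 4.0.16 (TMM scaling, quasi-likelihood F-test, two-sided, genotype as the single factor, Benjamini-Hochberg adjustment), a script also tested on simulated data. SE is the log2 fold change divided by the root of F. Alternatives were other scalings, DESeq2 1.42.0, limma 3.58.1 on log2(FPKM + pseudocount), other minimums, a block for replicate number and leaving out single libraries. No 2 libraries were duplicates (chi-square per degree of freedom at least 2.19). The members, lists and naming rule were chosen with earlier results of these data known. The rule named all called linker and variant genes, up to 6 core genes per family, the most abundant member of each class, 10 set genes, and up to 5 called genes per list. Numbering of replicates did not pair the libraries. Hairpins and shared windows came from GENCODE release 29 and promoters from RefSeq GRCh38.p14. Values of 1 linker gene are not reported here, though it is part of the class counts and sums.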

Additional observations from a re-analysis of the deposited data

How the results depend on the processing

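The 17 alternatives called 13 of the 15 called histone genes in the same direction wherever they gave a value, and 0 of the 11 uncalled ones. The exceptions were H2AZ2 and MACROH2A2. The number of linker genes called higher was 3 with a mean FPKM of at least 5, where fewer are tested, and 4 in the other alternatives, with 0 lower in each. With a mean FPKM of at least 5, which tests fewer genes, 1 core gene was higher and 1 lower, and 0 variants were higher and 2 lower. Without a filter 5 core genes were higher, and 3 genes of 3' end processing were higher in place of 5. The number of variants called lower was 2 with library totals as the scaling, 2 with upper-quartile scaling and 2 with limma at each pseudocount (0.1, 0.5 and 1). Leaving out 1 library gave 2 to 4 lower variants, with 2 without mutant replicate 3, wild-type replicate 2 or wild-type replicate 3. Settings chosen after seeing the data were sums and shares without H2BC21 or VIM. The mutant minus wild-type difference in summed core counts was 19.8 CPM and -3.72 without H2BC21, and that of H2B counts was 18.3 and -5.24. The folds of H1-4, H3C2 and H4C5 moved by over 1.5 times.

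Replicate numbers are shared between the groups, but deviations of same-numbered libraries correlated at 0.0039, -0.044 and -0.013, so they share a number and not a pairing. A fit with the replicate block called 7074 genes against 7287, with 4 linker genes higher, 3 core genes higher and 3 lower, and 1 variant higher and 3 lower. Core genes with under 10 counts per library limit what can be seen.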

Other observations

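Of 14 histone-family genes whose symbols fall outside the prefixes used, such as the testis variants and the centromeric H3, 2 reached the expression minimum, of which 1 was called higher and 1 was not called. Of the 24 pseudogene symbols left out, 0 reached the minimum.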
